A study of Mus musculus with 8 samples.

Results

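The nuclear genes of oxidative phosphorylation were described here in liver macrophages of mice, complex by complex. They were chosen by symbol: Ndufa, Ndufb, Ndufc, Ndufs or Ndufv with a number for complex I, Sdha to Sdhd for complex II, names starting with Uqcr for complex III, with Cox4 to Cox8 for complex IV, and with Atp5 for complex V. This rule, which uses no measured value, found 82 of the 24786 genes in the count files: 36 in complex I, 4 in complex II, 8 in complex III, 18 in complex IV and 16 in complex V. Of these, 78 passed the filter on low counts and were tested, and the 4 others, Cox4i2, Cox7b2, Cox8b and Cox8c, all belong to complex IV.

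RNA with poly(A) tails was sequenced from 2 macrophage subsets of the liver, resident Kupffer cells and monocyte-derived macrophages (MoM), of mice of the C57BL/6 strain. Each subset came from mice labelled dnTGFβRII (TG) and from wild-type (WT) mice, with 2 libraries in each of the 4 groups, Kupffer WT, Kupffer TG, MoM WT and MoM TG. The dnTGFβRII mouse carries a dominant-negative form of the type II receptor for transforming growth factor β, is known as a line in which T cells rather than macrophages express the transgene, and is used here as a cholangitis model. Age, sex and treatment, and whether the 2 libraries of a group came from separate animals, are not stated, so p-values measure only the spread between these libraries, which may be technical. All levels are bulk levels, in which fewer cells of a type and less RNA per cell cannot be told apart.

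Oxidative phosphorylation passes electrons from NADH through complex I, and from succinate through complex II, to ubiquinone, complex III and cytochrome c, and then through complex IV to oxygen. Complexes I, III and IV pump protons out of the mitochondrial matrix, and complex V, the ATP synthase, uses their return to make ATP. Complex II is also the succinate dehydrogenase of the tricarboxylic acid cycle, and in activated macrophages succinate oxidation is known to be tied to inflammatory signalling. Complexes I, III, IV and V also contain subunits encoded by mitochondrial DNA, which were not analysed here.

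Each library held between 26190194 and 30308132 counts. Levels are given as CPM, the counts of a gene scaled to a common library total, and 1 count is worth 0.0330 to 0.0382 CPM. The members together took 0.418% to 0.610% of all counts. All 10 markers on a list for Kupffer cells had counts in every library. They summed to 15723 CPM in Kupffer TG replicate 2 and to 32109 to 34566 CPM in the remaining Kupffer libraries. The same list stood at 362 to 839 CPM in 3 MoM libraries and at 10174 CPM in MoM WT replicate 1, which therefore stands apart from its group. A list of 10 markers of monocyte-derived macrophages summed to 267 to 500 CPM in the Kupffer libraries and to 1767 to 4743 CPM in the MoM libraries. A list of 10 endothelial markers, with none at 0 in any library, summed to 10574 CPM in Kupffer TG replicate 2, while the 3 remaining Kupffer libraries had 1690 to 2455 CPM. It summed to 6856 CPM in MoM WT replicate 1, while the 3 remaining MoM libraries had 827 to 3189 CPM. Neutrophil markers summed to 3733 CPM in MoM TG replicate 2 and to 2.43 to 553 CPM elsewhere, with Camp and Elane at 0 in both Kupffer WT libraries. Tgfbr2, the mouse gene for the type II receptor for transforming growth factor β, was read as well. It stood at 349 and 345 CPM in Kupffer WT and 319 and 289 in Kupffer TG. In MoM WT it stood at 232 and 174 CPM, and in MoM TG at 249 and 178. These counts do not show whether the transgene was expressed.

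In what follows, CPM are scaled by edgeR's TMM factors, pairs of values are replicates 1 and 2, and differences are log2 fold changes with their standard error (SE). Calls come from edgeR's quasi-likelihood test, with the 4 groups in 1 fit, where the p adjusted by Benjamini-Hochberg over the 15254 tested genes lay below 0.05. For MoM against Kupffer cells of WT mice, a simulation that copied the means and spread of the libraries had 50 altered genes at each fold size: none of those at 2-fold was called, 4 of those at 4-fold, and 29 of those at 8-fold. The altered genes were drawn from all tested genes above a low mean level, not from the members. These counts therefore need not hold for members with a small spread. In the libraries themselves the ribosomal gene Rps16 was called at a difference near 2-fold, as given below. No member was called in any of the 5 comparisons, and most measured differences were below 2-fold.

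The members were steady genes in these cells. Among the 73 with a mean of at least 10 CPM, the highest library exceeded the lowest by a median of 1.80 times, against 2.22 times for the 9131 tested genes at that level. Ndufb9, an accessory subunit of complex I, had the narrowest range at 1.27 times, from 29.1 to 36.9 CPM. Ndufc1, another accessory subunit of complex I, had the widest at 4.84 times, from 3.67 CPM in MoM WT replicate 2 to 17.7 CPM in Kupffer TG replicate 1. In the map of single members by library, 1 column differs from the others: Kupffer TG replicate 1 held the highest level of 51 of the 78 members, while it did so for 12.6% of all tested genes. Kupffer WT replicate 2 held the lowest level of 25 members.

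**Figure D1:**
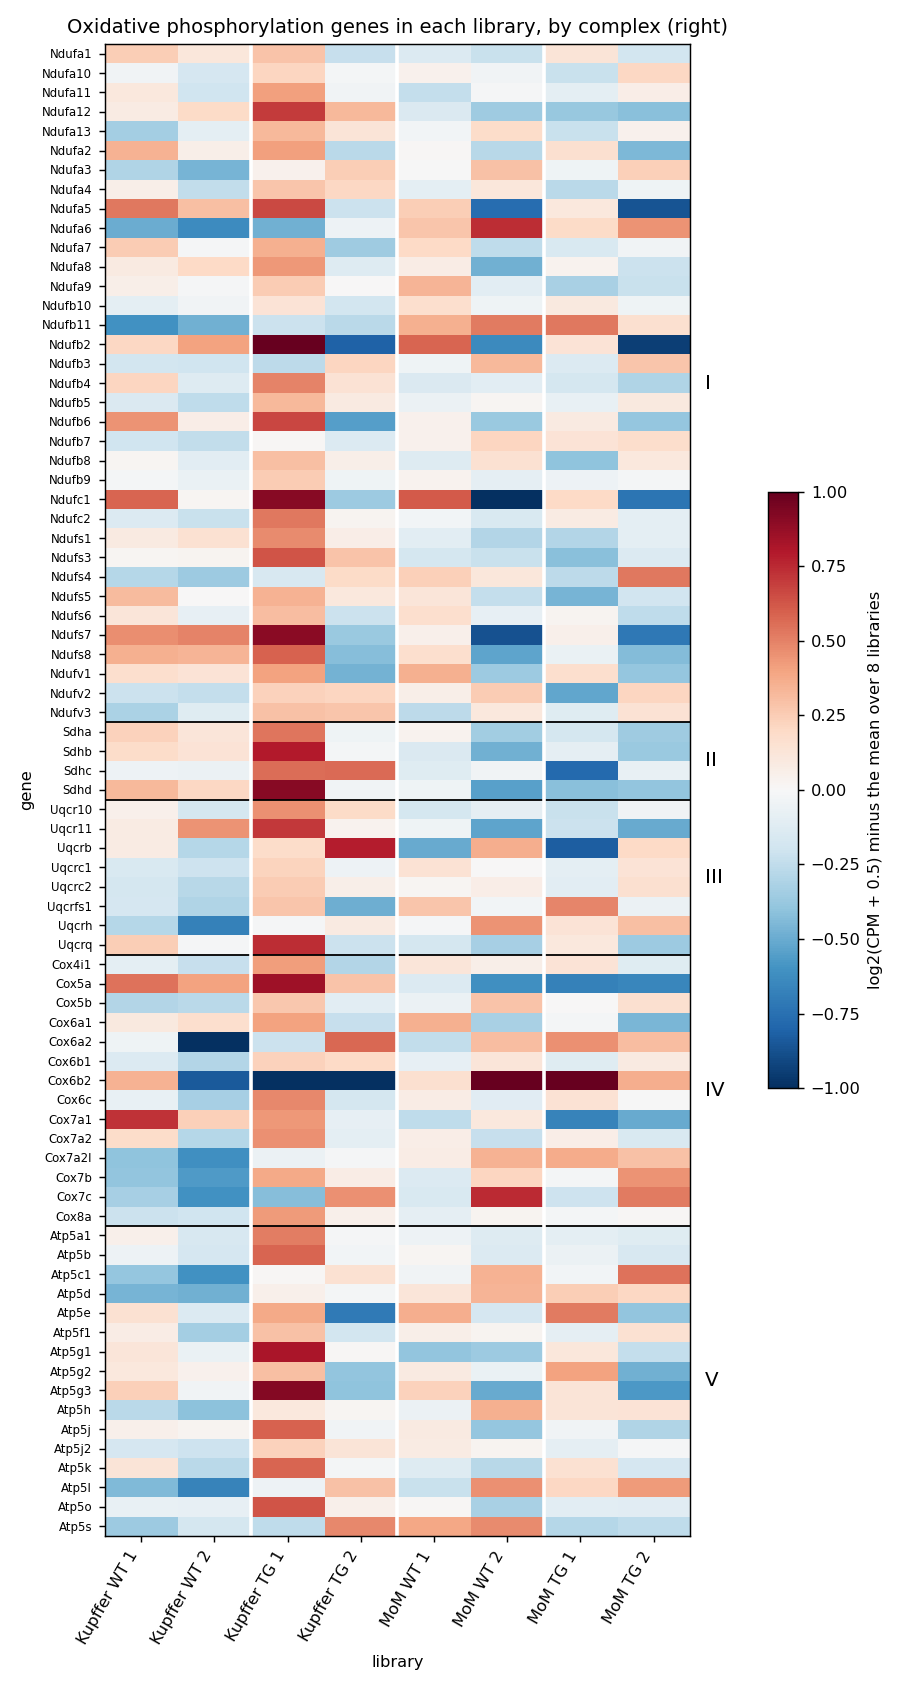
Each row is a tested member, grouped by complex, and each column 1 of the 8 libraries; colour gives log2(CPM + 0.5) minus the member's mean over the libraries, and colours stop at 1 and -1. Kupffer TG replicate 1 is the library with the most red cells and is highest for 51 members.

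Levels per kilobase of transcript, which allow genes to be compared, ran from near 0 to 278 CPM per kilobase as means over the 8 libraries. The catalytic β subunit of the ATP synthase, Atp5b, was the highest member. It was followed by Cox4i1 of complex IV at 268, Cox6a1 at 231, Cox8a at 218 and the α subunit Atp5a1 at 212. In complex I the level per kilobase ranged from 8.82 for Ndufa12 to 114 for Ndufa4, a protein that is also assigned to complex IV. In complex III it ranged from 49.7 for Uqcrc2, a core subunit, to 143 for Uqcrq, a small ubiquinone-binding subunit. In complex II the genes Sdhb, Sdha and Sdhd lay close together, Sdhb at 70.1, Sdha at 67.2 and Sdhd at 64.9, with Sdhc at 18.7 CPM per kilobase. Atp5s, which is named after coupling factor B and is not a core part of the enzyme, was the lowest tested member of complex V at 1.14 CPM per kilobase.

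**Figure D2:**
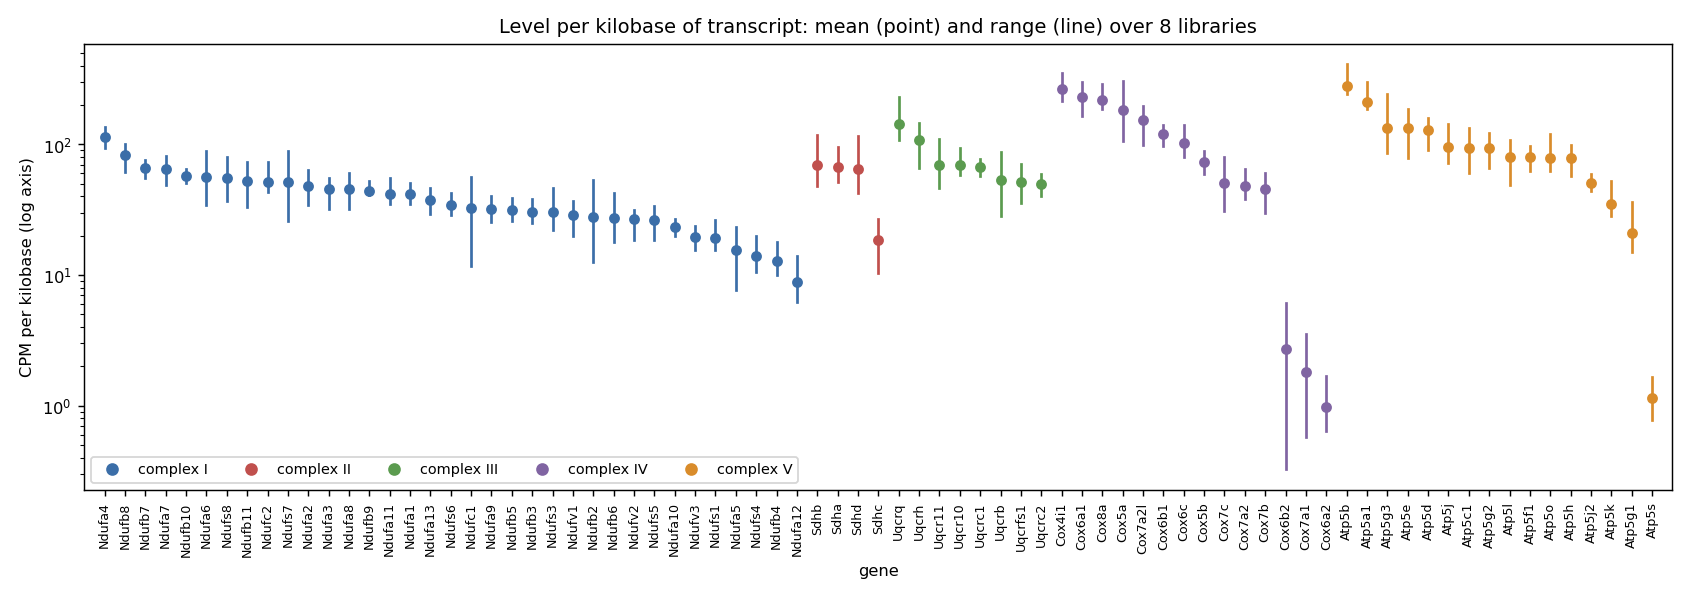
Each point is the mean CPM per kilobase of a member over 8 libraries on a log axis, and each line runs from its lowest to its highest library above 0; members are ordered within their complex. Members below 0.5 CPM per kilobase are left out, and the ranges of Ndufc1, Ndufs7 and Ndufb2 are the widest in complex I.

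Several subunits of complexes IV and V exist as isoforms made from separate genes, and the form known from most tissues was the one found here. Cox4i1 stood at 161 to 263 CPM in all libraries, whereas Cox4i2, the form known from lung and low oxygen, stood at 0 to 0.323 CPM. Cox6a1 stood at 94.4 to 171 CPM and the muscle form Cox6a2 at 0 to 1.14 CPM. Cox6b1 stood at 60.1 to 86.8 CPM and the testis form Cox6b2 at 0.151 to 2.83 CPM. These pairs differed by far more than any group did. Cox7a2 stood at 25.3 to 42.7 CPM and the muscle form Cox7a1 at 0.226 to 1.40 CPM. Cox8a stood at 103 to 160 CPM, Cox8b at 0 to 0.0373 CPM, and Cox8c and the testis form Cox7b2 had no count in any library, which allows up to 3 counts in a library by counting error alone. The ring of the ATP synthase that carries protons is built from identical c subunits encoded by Atp5g1, Atp5g2 and Atp5g3. Atp5g3 gave 56.9% to 70.5% of their summed CPM, Atp5g2 20.7% to 34.8% and Atp5g1 5.65% to 10.8%.

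Short transcripts were a shared feature of the members that the choice by symbol did not use. Their median length was 723 bases, from 315 to 3171, against 2652 bases for all tested genes, and 52 of 78 (66.7%) were shorter than 1000 bases, against 9.96% of all genes. They were spread over 19 chromosomes. RefSeq promoters of the GRCm38.p6 assembly, from 250 bases before to 50 after the start, were found for 64 of the 78 members, 69 promoters in all, and both strands were searched for short motifs whose matches could overlap one another. The motif of the factor NRF1, whose letters stand in capitals in the Ndufa11 line below with any base allowed at their sixth position, was in 18 of the 69 (26.1%), against 8.72% of the 14724 promoters of tested genes. CCGGAAG, bound by ETS factors, was in 23.2% against 15.5%, and AANATGGCG, the core bound by YY1, in 14.5% against 4.38%. GGGCGG, bound by SP1, was in 37.7% against 58.2%. These are counts of letters, and whether a factor binds there was not measured.

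The bases before the start of 4 members are shown from RefSeq (GRCm38.p6), in reading direction and ending before the first annotated exon base. Sdhd, Cox5a and Cox7a2l are shown because they are described in the comparison of the subsets, and Ndufa11 as an example of the NRF1 letters. Capitals mark the NRF1 letters in Ndufa11 (chr17:56717686-56717761, plus strand, position -60 from the start), the ETS letters in Sdhd (chr9:50603850-50603909, minus strand, position -46), and the SP1 letters in Cox5a (chr9:57521132-57521231, plus strand, position -13) and Cox7a2l (chr17:83514334-83514433, minus strand, position -22).
Ndufa11: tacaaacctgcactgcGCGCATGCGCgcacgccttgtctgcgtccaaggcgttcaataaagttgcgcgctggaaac
Sdhd: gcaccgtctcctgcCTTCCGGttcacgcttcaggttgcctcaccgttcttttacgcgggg
Cox5a: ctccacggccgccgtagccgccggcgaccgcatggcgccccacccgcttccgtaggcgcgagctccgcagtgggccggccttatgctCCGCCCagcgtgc
Cox7a2l: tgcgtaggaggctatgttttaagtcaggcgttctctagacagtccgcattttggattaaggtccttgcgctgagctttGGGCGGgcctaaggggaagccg

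The first comparison asked how the 2 macrophage subsets differ within each genotype. Complex II was the complex in which the subsets differed most by its median, with lower levels in MoM. Cox5a of complex IV was also lower in MoM, while Cox7a2l of complex IV, Ndufb11 and Ndufa6 of complex I, and Atp5d of complex V were higher. In WT mice 0 of 78 members were called, while 1.17% of all tested genes were (178 of 15254). At an unadjusted p below 0.05, 8 members were higher in MoM and 1 lower, where all genes gave 14.9% and 10.5%. DESeq2, which was run as an alternative, called 4 members higher and 1 lower, where it called 12.1% and 7.61% of all genes. In TG mice edgeR called 0 members and 2.5% of all genes. At an unadjusted p below 0.05, 2 members were higher and 5 lower (14.1% and 11.4% of all genes). DESeq2 called 1 member higher and 4 lower (8.94% and 9.19%). These shares of members are below those of all genes in both genotypes.

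The libraries of the 2 subsets did not overlap for 26 members higher in MoM and 18 lower in WT (38.5% and 29.7% of all genes), and for 8 and 25 in TG (29.1% and 23.8%). The median of the members' log2 fold changes, MoM over Kupffer, was 0.06 in WT and -0.25 in TG, beside 0.11 and -0.04 for all tested genes. Of 78 members, 42 were positive in WT (55.1% of all genes) and 19 in TG (47.9%). The TG value depended on which Kupffer TG library was kept: without replicate 1 the median was -0.00, and without replicate 2 it was -0.53. By complex the medians in WT were -0.00 for I, -0.39 for II, 0.17 for III, 0.25 for IV and 0.08 for V. In TG they were -0.27, -0.80, -0.29, -0.10 and -0.28. Complex II had the lowest median in both genotypes, and its 4 genes were the only complete complex with all signs negative in both.

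**Figure D3:**
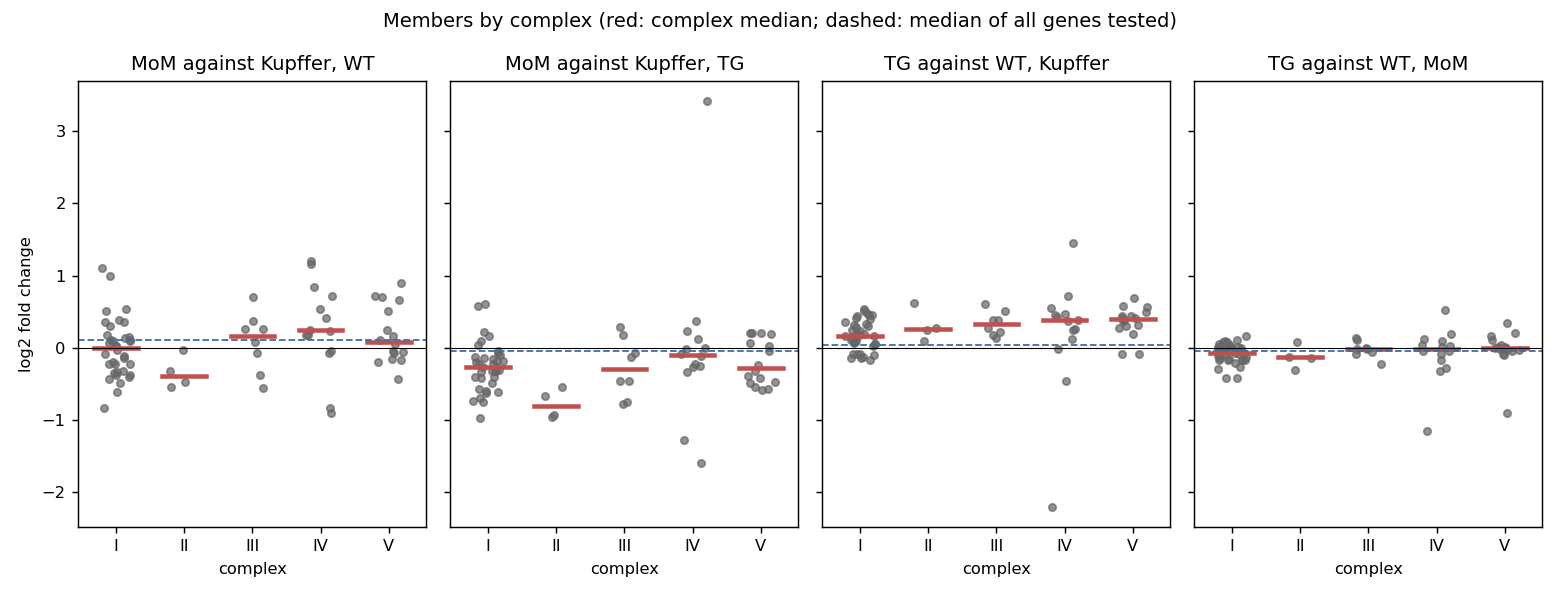
Points are the log2 fold changes of the tested members in 4 comparisons (panels), by complex; red bars are complex medians and the dashed line is the median of all tested genes. Complex II has the lowest median in both panels of MoM against Kupffer cells, at -0.39 in WT and -0.80 in TG.

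Across both genotypes, 7 members were lower in all 4 MoM libraries than in all 4 Kupffer libraries, where 11.4% of all tested genes were. They were Ndufa12, Ndufs1, Ndufs3, Sdhb, Sdhd, Uqcr11 and Cox5a. Another 5 were higher in all 4 MoM libraries, Ndufa6, Ndufb7, Ndufb11, Cox7a2l and Atp5d, where 14.8% of all genes were. The remaining 66 of 78 overlapped between the subsets when genotypes were put together.

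The core and accessory subunits of complex I, which takes electrons from NADH, spread around 0 in WT, with 18 of 36 positive, and lay mostly below 0 in TG, with 6 of 36 positive. Ndufb11 (chrX:20615326-20617619), an accessory subunit of the membrane arm, stood at 30.1 and 32.9 CPM in Kupffer WT, 39.5 and 38 in Kupffer TG, 59.1 and 66.2 in MoM WT and 66.6 and 51.5 in MoM TG. All MoM libraries lay above all Kupffer libraries. Its log2 fold change was 0.99 (SE 0.20, adjusted p = 0.0734 by edgeR) in WT, the smallest p of any member there, and 0.61 (SE 0.20, adjusted p = 0.129) in TG. Ndufa6 (chr15:82350140-82354322), an accessory subunit of the matrix arm, stood at 22.1 and 20.1 CPM in Kupffer WT, 22.3 and 30.3 in Kupffer TG, 38.2 and 52.8 in MoM WT and 35.9 and 43.1 in MoM TG. Its difference was 1.11 (SE 0.26, adjusted p = 0.0935 by edgeR) in WT and 0.59 in TG. DESeq2 called both in WT, with adjusted p = 0.00596 for Ndufb11 and 0.0109 for Ndufa6. Exons of Ndufb11 overlap those of Rbm10 on the other strand, and without a stated strand setting reads from the 2 genes cannot be told apart.

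Other complex I genes lay lower in MoM. Ndufa12 stood at 10 and 10.9 CPM in Kupffer WT, 15.6 and 12 in Kupffer TG, 8.52 and 7.27 in MoM WT and 7.15 and 6.94 in MoM TG. Ndufs3, a core subunit of the matrix arm, stood at 31.5 and 31.7, 48.4 and 38.1, 27.4 and 26.6, and 23.2 and 28.2 CPM in the same order of groups. In TG the differences were -0.97 (SE 0.27, adjusted p = 0.0985 by edgeR) for Ndufa12 and -0.75 (SE 0.21, adjusted p = 0.1000) for Ndufs3, and DESeq2 called both (adjusted p = 0.0107 and 0.0154). Ndufs1, the largest iron-sulfur subunit, was lower in all MoM libraries, at 40 to 45.8 CPM against 51.5 to 68.4 CPM, with differences of -0.32 in WT and -0.48 in TG. Ndufs7, an iron-sulfur core subunit, varied widely between replicates outside Kupffer WT. It stood at 50 and 51 CPM in Kupffer WT and 67.8 and 27.8 in Kupffer TG. In MoM WT it stood at 37.3 and 19.5 CPM, and in MoM TG at 37.3 and 21.8. In WT both MoM libraries lay below both Kupffer libraries, as for 29.7% of all genes, and in TG the subsets overlapped. Ndufv1, the core subunit with the NADH site, had a difference of -0.11 in WT and -0.12 in TG. Over the 36 complex I genes, differences ran from -0.83 (Ndufs7) to 1.11 in WT and from -0.97 to 0.61 in TG.

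Complex II has 4 subunits, all nuclear: the flavoprotein Sdha with the succinate site, the iron-sulfur protein Sdhb, and the membrane anchors Sdhc and Sdhd. Their summed level was 463 and 435 CPM in Kupffer WT, 638 and 421 in Kupffer TG, 392 and 312 in MoM WT and 331 and 320 in MoM TG. Every Kupffer library lay above every MoM library. Marker lists of other cells also separated the subsets: 6 pan-macrophage markers summed to 8094 to 15289 CPM in the Kupffer libraries and 2199 to 7006 CPM in the MoM libraries. The lists for B cells (20.1 to 37.9 against 93.0 to 218 CPM) and neutrophils (2.43 to 37.8 against 58.4 to 3733 CPM) were higher in MoM, and their part in the result was not tested. As a share of the CPM of all members, which does not depend on scaling between libraries, complex II made up 9.39% and 9.65% in Kupffer WT, 9.60% and 8.63% in Kupffer TG, 7.7% and 6.49% in MoM WT and 6.79% and 6.72% in MoM TG. The mean share differed by -2.42 percentage points in WT (9.52% ± 0.186 against 7.10% ± 0.858, SD, n = 2 each) and by -2.36 in TG (9.11% ± 0.690 against 6.75% ± 0.0488). The highest MoM share belonged to MoM WT replicate 1, the library with 10174 CPM of Kupffer markers, and the lowest Kupffer share to Kupffer TG replicate 2, the library with 10574 CPM of endothelial markers. The part of these other cells in the shares was not tested, and the difference in WT was -3.03 points without MoM WT replicate 1. The complex IV share also separated the subsets, the other way, at 19.6% to 20.3% in the Kupffer libraries and 20.6% to 21.6% in the MoM libraries, with mean differences of 1.33 points in WT and 1.01 in TG. The shares of the others overlapped between the subsets, at 22.9% to 25.7% for I, 8.95% to 10.2% for III and 35.8% to 38.9% for V.

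**Figure D4:**
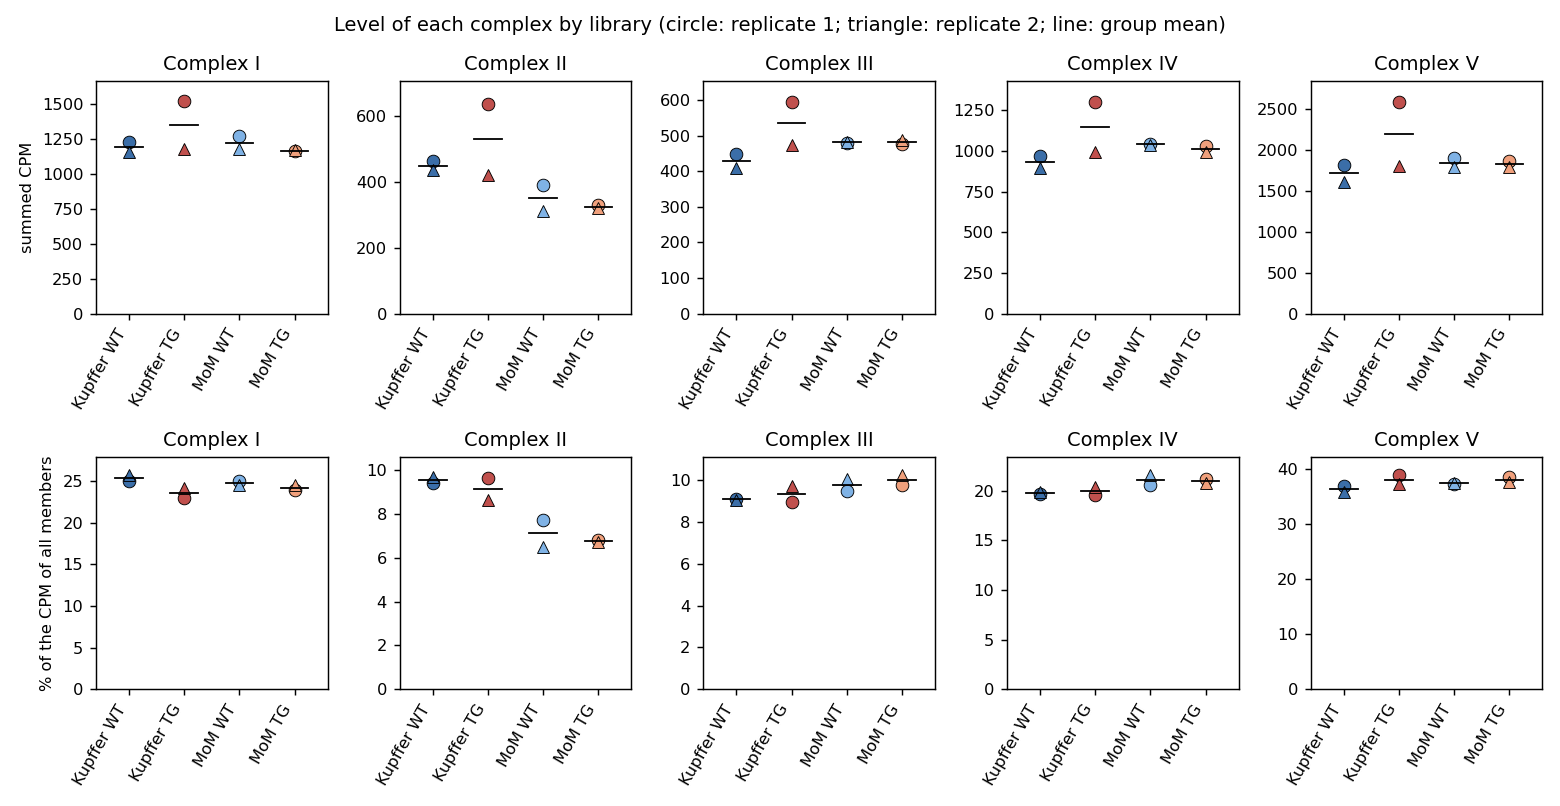
Summed CPM of each complex (upper row) and its percentage of the CPM of all members (lower row) by group; each symbol is 1 library, circles for replicate 1 and triangles for replicate 2, and bars are group means. The complex II share lies at 8.63% or more in the 4 Kupffer libraries and at 7.7% or less in the 4 MoM libraries, and Kupffer TG replicate 1 has the highest sum in every complex.

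No single gene of complex II was called by edgeR after adjustment; in TG 2 of the 4, Sdhc and Sdhd, had an unadjusted p below 0.05. Sdhd (chr9:50596357-50603812) stood at 95.3 and 87.7 CPM in Kupffer WT, 143 and 73.9 in Kupffer TG, 73.4 and 51.9 in MoM WT and 56.6 and 57.5 in MoM TG. Sdhb (chr4:140961203-140979193) stood at 87.7 and 85.3, 134 and 76.1, 69.9 and 55.1, and 72.5 and 59.7 CPM in the same order. For both genes all Kupffer libraries lay above all MoM libraries, although for Sdhd Kupffer TG replicate 2 and MoM WT replicate 1 nearly meet. Sdha (chr13:74322254-74350280) stood at 225 and 208, 277 and 186, 196 and 150, and 169 and 149 CPM, and MoM WT replicate 1 overlapped with Kupffer TG replicate 2. Sdhc (chr1:171127165-171150603) stood at 55 and 54.8, 84.2 and 84.8, 52.3 and 55.6, and 33.0 and 54.2 CPM, so that it differed between subsets in TG and overlapped in WT. The differences in WT were -0.55 (SE 0.34) for Sdhd, -0.47 (SE 0.30) for Sdhb, -0.32 (SE 0.26) for Sdha and -0.03 (SE 0.25) for Sdhc, with adjusted p of 0.328 or more by edgeR. In TG they were -0.92 (SE 0.34), -0.67 (SE 0.30), -0.54 (SE 0.27) and -0.95 (SE 0.26), with adjusted p = 0.158, 0.231, 0.261 and 0.0902. DESeq2 called Sdhc in TG (adjusted p = 0.00912). Without Kupffer TG replicate 1 the complex II median in TG was -0.30, and without Kupffer TG replicate 2 it was -1.09, where edgeR called Sdhd (adjusted p = 0.0430) and 5.49% of all genes.

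In complex III, which hands electrons from ubiquinol to cytochrome c, the core subunits were slightly higher in MoM of WT mice and mixed in TG. In WT their libraries did not overlap between the subsets, as for 38.5% of all genes in that direction. Uqcrc1 had differences of 0.26 in WT and -0.07 in TG, Uqcrc2 of 0.27 and -0.13, and the Rieske iron-sulfur protein Uqcrfs1 of 0.37 and 0.30, the last with SE 0.32 in each. Uqcr11, a small accessory subunit, was lower in all MoM libraries. It stood at 31.9 and 41.2 CPM in Kupffer WT, 49.2 and 30.8 in Kupffer TG, 29.2 and 20.7 in MoM WT and 25.8 and 21 in MoM TG. Its differences were -0.55 in WT and -0.77 in TG (adjusted p = 0.305 and 0.199 by edgeR). Uqcr10 was negative as well, at -0.07 and -0.46 (adjusted p = 0.232 in TG by edgeR). Uqcrh, the hinge protein, was positive, at 0.71 in WT (adjusted p = 0.146 by edgeR) and 0.18 in TG.

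Complex IV, cytochrome c oxidase, held Cox5a, the member with the smallest p between subsets in TG. Cox5a (chr9:57521274-57532426), an accessory subunit on the matrix side, stood at 161 and 146 CPM in Kupffer WT, 199 and 135 in Kupffer TG, 101 and 72.1 in MoM WT and 68.7 and 69.8 in MoM TG. All Kupffer libraries lay above all MoM libraries. The difference was -0.83 (SE 0.26, adjusted p = 0.137 by edgeR) in WT and -1.27 (SE 0.27, adjusted p = 0.0626) in TG. DESeq2 called it in both (adjusted p = 0.0382 and 0.000767), and edgeR called it in TG without Kupffer TG replicate 2 (adjusted p = 0.0355) and without either MoM WT library (adjusted p = 0.0466 and 0.0463, with 6.78% and 6.79% of all genes called). Cox5b, its partner among the accessory subunits, did not follow: it stood at 51.3 and 52.1, 75.9 and 58.5, 60.5 and 76.9, and 62.9 and 70.2 CPM, with differences of 0.41 in WT and -0.01 in TG. The ratio of Cox5a to Cox5b, taken within a library, was 2.30 to 3.13 in the Kupffer libraries and 0.937 to 1.66 in the MoM libraries. The highest MoM ratio, 1.66, was that of MoM WT replicate 1, the library with most Kupffer markers of its subset, whose part was not tested. Exons of Cox5a overlap a long non-coding RNA, Gm26631, on the other strand.

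Cox7a2l (chr17:83501918-83517330) is known as a factor that joins complexes III and IV into supercomplexes, and mice of C57BL/6 strains are known to carry a shortened allele of it. It stood at 123 and 106 CPM in Kupffer WT, 156 and 161 in Kupffer TG, 171 and 207 in MoM WT and 210 and 199 in MoM TG, with all MoM libraries above all Kupffer libraries. Its difference was 0.72 (SE 0.19, adjusted p = 0.108 by edgeR, 0.0305 by DESeq2) in WT and 0.37 (SE 0.19, adjusted p = 0.288 by edgeR) in TG. Its close relatives Cox7a2 and Cox7a1 had differences of -0.04 and -0.90 in WT, the latter at under 1.5 CPM. The ratio of Cox5a to Cox7a2l was 0.838 to 1.38 in the Kupffer libraries and 0.327 to 0.589 in the MoM libraries. Cox4i1 and Cox6c, at 161 to 263 and 40 to 70.6 CPM, had differences of 0.25 and 0.18 in WT and -0.09 and -0.11 in TG. Cox6b2 had the largest log2 fold change of any member, 3.41 in TG (SE 0.98, adjusted p = 0.101 by edgeR, 0.0145 by DESeq2), at 0.151 and 0.221 CPM in Kupffer TG and 2.63 and 1.42 CPM in MoM TG. In WT the same gene stood at 1.40 and 0.336 CPM in Kupffer cells and 1.17 and 2.83 in MoM, which overlap.

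In complex V the α and β subunits, Atp5a1 and Atp5b, had differences near 0 in WT, where Atp5d had the smallest p. In TG they were lower in MoM, Atp5b at -0.42 (SE 0.27) and Atp5a1 at -0.38 (SE 0.26). Atp5b (chr10:128083273-128090391) stood at 507 and 467 CPM in Kupffer WT, 788 and 515 in Kupffer TG, 532 and 478 in MoM WT and 505 and 472 in MoM TG. Atp5a1 followed it closely, with a ratio of Atp5a1 to Atp5b of 0.938 to 1.06 over the 8 libraries. Atp5d (chr10:80138632-80145818), the δ subunit of the central stalk, stood at 84.9 and 84.3, 122 and 116, 128 and 149, and 140 and 136 CPM in the order given for Atp5b. All MoM libraries lay above all Kupffer libraries, and Kupffer TG lay between Kupffer WT and MoM. Its difference was 0.71 (SE 0.17, adjusted p = 0.0950 by edgeR, 0.0142 by DESeq2) in WT and 0.21 (SE 0.17, adjusted p = 0.498 by edgeR) in TG. Atp5c1, the γ subunit that rotates in the stalk, had differences of 0.67 (SE 0.26, adjusted p = 0.182) and 0.20. Atp5l, with 8 pseudogene copies that could take its reads, had 0.72 and 0.19. In TG the smallest p-values in complex V belonged to Atp5o, -0.48 (adjusted p = 0.271), and Atp5j, -0.48 (adjusted p = 0.338), parts of the outer stalk, and exons of Atp5j overlap those of Gabpa on the other strand.

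**Figure D5:**
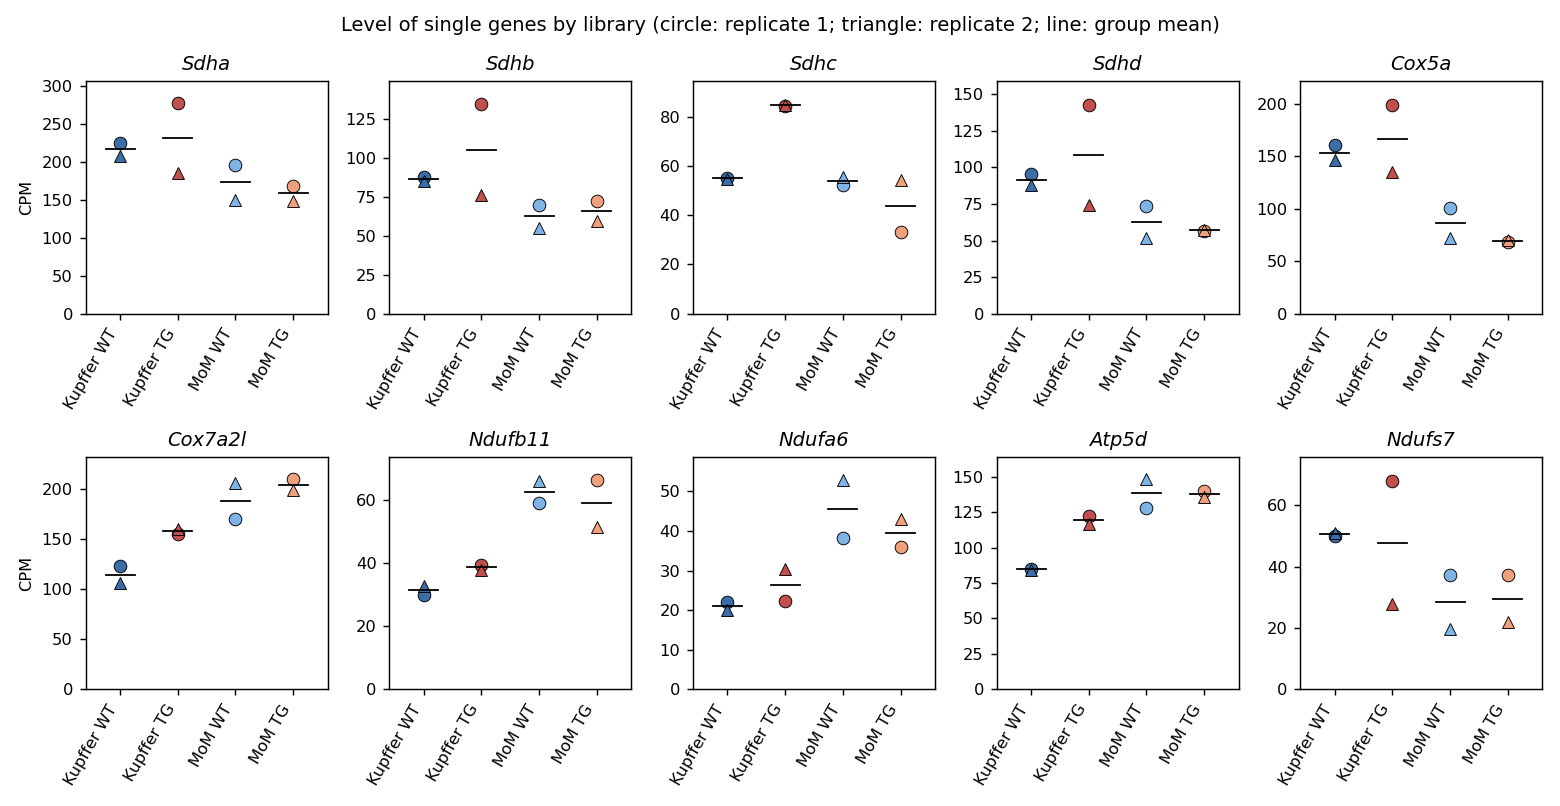
CPM of 10 members by group, with circles for replicate 1, triangles for replicate 2 and bars for group means; each vertical axis starts at 0. Sdhb, Sdhd and Cox5a are lower in all 4 MoM libraries than in all 4 Kupffer libraries, Cox7a2l, Ndufb11, Ndufa6 and Atp5d are higher, and Sdha, Sdhc and Ndufs7 overlap.

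The second comparison asked how the TG genotype differs from WT within each subset. In Kupffer cells most members lay higher in TG, by small amounts, and in MoM they were level. In Kupffer cells edgeR called 0 members, as it called 0.0% of all genes; at an unadjusted p below 0.05, 4 members were higher and 0 lower (4.68% and 1.26% of all genes), and DESeq2 called 0 members and 1.71% of all genes. The median log2 fold change of the members, TG over WT, was 0.28, beside 0.03 for all genes, and 65 of 78 were positive, against 53.1% of all genes. The groups did not overlap for 33 members that were higher in TG (16.7% of all genes) and 1 that was lower (17.7%). By complex the medians were 0.16 for I, 0.26 for II, 0.33 for III, 0.38 for IV and 0.39 for V. These medians depended on which Kupffer TG library was kept. Without replicate 1 the median over all members was 0.04 and that of complex II -0.20. Without replicate 2 they were 0.48 and 0.67. Replicate 1 had the highest level of 51 members and the lowest TMM factor. That factor was 0.918, beside 0.947 and 0.927 in Kupffer WT and up to 1.11 elsewhere. Replicate 2 had 15723 CPM of Kupffer markers, against 32109 to 34566 in the other Kupffer libraries. Its hepatocyte markers summed to 963 CPM, against 16.6 to 501, and its erythroid markers to 3817, against 355 to 1189. The part of other cells was not tested. Summed over all members, the 2 Kupffer TG libraries stood at 6647 and 4875 CPM, and the 2 Kupffer WT libraries at 4931 and 4512 CPM.

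Some members were higher in both Kupffer TG libraries to a like degree. Atp5d, with the values above, had a difference of 0.50 (SE 0.17, adjusted p = 0.730 by edgeR), the smallest p of any member in this comparison. Cox7b, a small subunit of complex IV, stood at 33.4 and 29.7 CPM in WT and 57.5 and 46.5 in TG, a difference of 0.72 (SE 0.25). Sdhc stood at 55 and 54.8 CPM in WT and 84.2 and 84.8 in TG, a difference of 0.62 (SE 0.25). For Sdhc the 2 libraries of each group lay close together, and the difference was 0.62 to 0.66 whichever library was left out. Others with the smallest p in their complex were Ndufa3 at 0.54, Ndufv3 at 0.51, Uqcrh at 0.51, Uqcrc2 at 0.39, Cox7a2l at 0.47 and Atp5l at 0.69, all with adjusted p = 0.730. Sdha, Sdhb and Sdhd, by contrast, were high in replicate 1 of Kupffer TG alone, and Sdhb turned to -0.18 without it. The other 13 of 78 members were negative. The lowest were Cox6b2 at -2.20, from 1.40 and 0.336 CPM to 0.151 and 0.221 CPM, Cox7a1 at -0.45, at under 1.5 CPM, and Ndufs8 at -0.17, and the remaining 10 lay between -0.14 (Ndufa5) and -0.01 (Cox6a1).

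In MoM edgeR called 0 members and 0.0% of all genes, and 0 members had an unadjusted p below 0.05 (3.42% of all genes higher, 3.05% lower). DESeq2 called 0 members and 0.926% of all genes. The median of the members was -0.03, beside -0.04 for all genes, and 32 of 78 were positive (46.7% of all genes). Medians by complex were -0.07 for I, -0.13 for II and -0.01 for each of III, IV and V. The groups did not overlap for 1 member that was higher (19.2% of all genes), Atp5g1 at 9.01 and 9.20 CPM in WT and 13 and 10.1 in TG, and for 7 that were lower (20%). The smallest p-values by complex belonged to Ndufa9 (-0.41) and Ndufs5 (-0.29) in I, Sdhc (-0.31) and Sdha (-0.12) in II, Uqcrb (-0.22, with 3 pseudogene copies) and Uqcrq (0.14) in III, Cox7a1 (-1.15, under 1 CPM) and Cox5a (-0.32) in IV, and Atp5s (-0.90, SE 0.54) and Atp5g1 (0.34) in V. Each had an adjusted p of 0.774 or more by edgeR. Farthest against their complex were Ndufa1 at 0.17, Sdhb at 0.08 and Cox6a2 at 0.53. The Sdhc value rested on single libraries, at -0.71 without MoM TG replicate 2 and 0.0078 without MoM TG replicate 1.

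The third comparison, the interaction, subtracted the TG effect of Kupffer cells from that of MoM. edgeR called 0 members and 0.0% of all genes, 1 member had an unadjusted p below 0.05 (6.42% of all genes), Sdhc at -0.93 (adjusted p = 0.626), and DESeq2 called 0 members and 0.348% of all genes. The median over the members was -0.35, beside -0.12 for all genes, and -0.11 without Kupffer TG replicate 1. Only 11 of 78 values were positive (43.5% of all genes). By complex the medians were -0.26, -0.30, -0.36, -0.43 and -0.40 from I to V.

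Lists of genes around the respiratory chain were read in the same fits. Cytochrome c, Cycs, which carries electrons between complexes III and IV, stood at 43.3 to 93.8 CPM, and Cyc1, the cytochrome subunit of complex III that the choice by symbol leaves out, at 39.7 to 82.7 CPM. Their differences between subsets were 0.26 and 0.03 in WT and -0.31 and -0.45 in TG. Ndufab1, the acyl carrier protein of complex I, had -0.27 and -0.75 (adjusted p = 0.163 in TG by edgeR), and Ndufa4l2, the relative of Ndufa4, stood at 0.15 CPM or less. Of 6 tested genes for other subunits and carriers, 15 for complex I assembly, 4 for complex II assembly, 6 for complex III assembly, 23 for complex IV assembly, 3 for complex V assembly, 17 of the tricarboxylic acid cycle and pyruvate dehydrogenase, and 14 regulators of mitochondrial genes, edgeR called 0 in each subset comparison. Complex V assembly had medians of -0.89 in WT and -1.28 in TG, lower than those of the complex II subunits at -0.39 and -0.80. For assembly of complexes I to IV the WT medians were 0.02, -0.35, -0.01 and -0.28. Their TG medians were -0.29, -0.28, -0.34 and -0.30. The tricarboxylic acid cycle list had -0.02 in WT and -0.22 in TG. Sdhaf1, which helps to insert the iron-sulfur clusters of Sdhb, was higher in MoM, unlike the subunits: it stood at 11.8 and 10.1 CPM in Kupffer WT, 15.3 and 14.5 in Kupffer TG, 22.2 and 36.9 in MoM WT and 37.5 and 30.3 in MoM TG (adjusted p = 0.0781 in WT and 0.0806 in TG by edgeR). The 3 other genes for complex II assembly were negative in both genotypes, like the subunits. In WT and TG, Sdhaf2 had -0.48 and -0.35, Sdhaf3 -0.23 and -0.46, and Sdhaf4 -0.80 and -0.21. The medians of the regulators, among them Nrf1, Gabpa and Tfam, were -0.06 in WT and 0.15 in TG.

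Among the lists outside the mitochondria, 1 of 16 glycolysis genes was called in each genotype, higher in MoM, where 1.17% and 2.5% of all genes were called. It was Pfkp, the platelet-type phosphofructokinase, at 63.3 and 57.7 CPM in Kupffer WT, 81.2 and 109 in Kupffer TG, 157 and 198 in MoM WT and 244 and 266 in MoM TG. Its difference was 1.55 (SE 0.23, adjusted p = 0.0450 by edgeR) in WT and 1.42 (SE 0.23, adjusted p = 0.0436) in TG. The glycolysis list as a whole did not move with it, with medians of 0.03 in WT and in TG. Of its 16 genes, 9 were positive in WT and 11 in TG. At an unadjusted p below 0.05 by edgeR, 3 were higher and 1 lower in WT, and 1 higher and 3 lower in TG. The 76 genes of cytosolic ribosomal proteins, also short and abundant transcripts, had medians of 0.91 in WT, with 75 positive and 1 called (Rps16, 1.17, adjusted p = 0.0478), and of 0.86 in TG, with 76 positive and 0 called. The 75 genes of mitochondrial ribosomal proteins had medians of 0.08 and -0.15, close to those of the members at 0.06 and -0.25.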

How the data were processed

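Gene expression was measured by sequencing of poly(A) RNA in 8 libraries, 2 for each of 4 groups, which the titles name. STAR 2.5.2b and mm10 are listed in the submitters' processing notes, and no source used here names the counting tool, its gene models or its strand setting. The deposited files hold raw counts per gene symbol, with no normalization by the authors. Counts from 1 to 19 were even in 65.0% to 68.0% of cases, so counts overstate independent fragments, and intervals from counting cover counting error only. A deposited table of the authors' own comparison was not used.

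All libraries were fitted together in edgeR 4.0.16 (R 4.3.3) with filterByExpr, TMM scaling and the quasi-likelihood test, leaving 15254 genes. The fit left 4 residual degrees of freedom, with 2.37 from the prior and a common BCV of 0.507. The fit was tested on simulated data. Positions and transcript lengths came from GENCODE M21 (GRCm38, the assembly of mm10), which matched 82 of 82 members and 24394 of all 24786 symbols. Exons of 25 members overlap a gene on the other strand, and 21 members have a pseudogene copy of at least 95% identity over 150 bases. Beyond those named above, the first set includes Atp5d (with Cbarp), Ndufs3 (with Kbtbd4) and Ndufs1 (with Ino80dos). Ndufb11, Cox7a2l, Ndufa12, Ndufs3 and Atp5c1 are among the members with a pseudogene copy.

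The members, lists and alternatives were chosen with earlier results of these data known. Named genes were, per complex and comparison, the 2 smallest p-values and the member farthest against the median, core subunits, isoform families and extremes of level; 1 core subunit is not reported here or drawn in the plots that name genes. Alternatives were DESeq2 1.42.0, other scaling, no filter, a replicate block, only the libraries compared, and leaving out libraries.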

Additional observations from a re-analysis of the deposited data

Results flagged for a closer look

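The values here are interactions on the log2 scale for members whose 2 libraries of each group moved in opposite directions under the same contrast. The direction of the libraries, not a test, singled them out; edgeR's interaction test called none of them, with adjusted p of 0.626 or more. For the TG effect, Ndufa12 (-0.57) and Atp5j2 (-0.48) were higher in TG than in WT in Kupffer cells and lower in MoM, a pattern of opposite genotype effects that 1003 of all tested genes (6.58%) showed. For MoM against Kupffer cells, 5 members were higher in MoM of WT mice and lower in MoM of TG mice: Ndufa13 (-0.61), Cox6b1 (-0.47), Cox8a (-0.43), Atp5j2 (-0.48) and Atp5s (-1.47), where 485 of all genes (3.18%) had opposite subset differences. Cox8a, for example, stood at 103 and 104 CPM in Kupffer WT, 112 and 121 in MoM WT, 160 and 123 in Kupffer TG and 117 and 120 in MoM TG. Atp5s stood at 1.15 and 1.38, 2.28 and 2.44, 1.29 and 2.47, and 1.24 and 1.28 CPM in that order, so that its 2 TG groups differ by a small margin.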

How the results depend on the processing

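Median log2 fold changes of the members and complexes depended mainly on single libraries. With 1 library left out at a time, lowest and highest medians for MoM against Kupffer cells in WT were -0.03 and 0.13 for all members, -0.09 and 0.08 for I, -0.59 and -0.22 for II, 0.06 and 0.28 for III, 0.18 and 0.32 for IV, and -0.05 and 0.19 for V. In TG they were -0.53 and -0.00088, -0.54 and -0.00088, -1.09 and -0.30, -0.43 and 0.025, -0.42 and 0.034, and -0.43 and 0.028 in that order. For TG against WT they were 0.037 and 0.48, 0.0021 and 0.36, -0.20 and 0.67, 0.19 and 0.51, 0.10 and 0.51, and 0.060 and 0.56 in Kupffer cells. In MoM they were -0.06 and 0.01, -0.09 and 0.02, -0.28 and 0.11, -0.10 and 0.06, -0.04 and 0.08, and -0.06 and 0.03. For the interaction they were -0.53 and -0.11, -0.43 and -0.069, -0.72 and 0.13, -0.54 and -0.22, -0.62 and -0.22, and -0.56 and -0.077. Members called ranged from 0 to 2 in WT (Ndufa6 and Ndufb11 without Kupffer TG replicate 1, where 9.03% of all genes were called) and from 0 to 2 in TG (Cox5a and Sdhd without Kupffer TG replicate 2).

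Without both Kupffer TG replicate 2 and MoM WT replicate 1, edgeR called 3 members in WT and 4 in TG (17.6% and 14.0% of all genes). Medians were then -0.53 for the members, -0.54 for I and -0.42 for IV in TG, 0.48, 0.36 for I and 0.67 for II in Kupffer cells, and -0.54 for the members and -0.62 for IV in the interaction. Without MoM TG replicate 2 as well, 18 members were called in WT and 6 in TG (33.2% and 20% of all genes). Medians were then -0.48 for the members, -0.55 for I, -1.17 for II, -0.56 for III and -0.40 for IV in TG, 0.46, 0.34 for I and 0.65 for II in Kupffer cells, and -0.59 for III in the interaction. These fits leave groups with 1 library, assumed to vary like the others. DESeq2 called 5 members in WT and 5 in TG. Scaling by library totals moved the median of all genes in WT from 0.11 to 0.32, and those of the members to 0.28, I to 0.21, III to 0.39 and IV to 0.47. Values that turned direction when 1 library was left out were, as lowest and highest, -0.18 and 0.68 for Sdhb in Kupffer cells and, in MoM, -0.71 and 0.0078 for Sdhc, -0.31 and 0.084 for Sdha, -0.84 and 0.29 for Uqcrb and -0.11 and 0.36 for Uqcrq. Sdha in MoM was 0.059 without the first pair of libraries and 0.19 without all 3. The cause was not tested. The deviations of replicates with the same number correlated at -0.135 to 0.619 between groups, with 4 of 6 above 0.1, so pairing by number was not established, and libraries of 1 number may still share an effect; with a replicate block 0 members were called in each comparison, with medians of 0.04 for the members and -0.41 for complex II in WT.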

Other observations

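Some members differed between replicate 1 and replicate 2 in the same direction in Kupffer TG, MoM WT and MoM TG. Kupffer WT was not part of this count. Of the 78 tested members, 32 (41.0%) were higher in replicate 1 in each of Kupffer TG, MoM WT and MoM TG, against 20.4% of all tested genes, and 10 (12.8%) were higher in replicate 2 in each of these, against 21.5%. The first set holds Sdha, Sdhb, Ndufs7, Ndufc1, Ndufb2, Ndufa5, Uqcrq, Cox6a1 and Atp5g3, and the second Ndufa6, Uqcrb, Uqcrh, Cox7c, Atp5c1 and Atp5l. Atp5g3 is an example, at 172 and 68.6 CPM in Kupffer TG, 107 and 63.8 in MoM WT and 99.3 and 61.0 in MoM TG. Cox7c, with 3 pseudogene copies, went the other way, at 19.0 and 35.6, 23.2 and 43.6, and 22.3 and 37.1 CPM. In Kupffer WT, 63 of the 78 members were higher in replicate 1, with a median log2 difference of 0.13, beside -0.02 for all tested genes. The second pattern therefore did not extend to Kupffer WT. Ndufa6, Uqcrb, Uqcrh, Cox7c, Atp5c1 and Atp5l were all higher in its replicate 1, with Cox7c at 20.4 and 16.8 CPM. Of the genes named from the first set, Ndufs7, Ndufb2 and Cox6a1 were higher in its replicate 2. The median transcript GC content was 53.7% in the first set and 47.8% in the second. Median differences of the members between replicates, regardless of sign, were 0.14 in Kupffer WT, 0.48 in Kupffer TG, 0.28 in MoM WT and 0.26 in MoM TG on the log2 scale. All tested genes had larger medians, at 0.22, 0.50, 0.42 and 0.35 in the same order.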
